A study of Capra hircus with 13 samples.

Results

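The expression of 7 goat genes linked to pluripotency was followed from the mature oocyte to the 8-cell stage and after knockdown of the m6A reader *YTHDF2*. The genes were *POU5F1*, *NANOG*, *SOX2*, *SOX15*, *SALL4*, *LIN28A* and *LIN28B*. They were taken by gene symbol, and all 7 were listed among the 18192 gene names shared by the MII, 4-cell and 8-cell tables and among the 27129 names of the 2 siRNA tables. The 9 untreated libraries comprised 3 of MII oocytes (mature oocytes arrested in meiosis), 3 of 4-cell and 3 of 8-cell embryos obtained by *in vitro* fertilization (IVF). The 4 injected libraries were all of the 8-cell stage. Zygotes had received 20 µM siRNA in the cytoplasm 8 h after IVF, either a universal negative control (NC siRNA, 2 libraries) or a mixture of 2 siRNAs against *YTHDF2* (YTHDF2 siRNA, 2 libraries), and 15 embryos were pooled for each library. All libraries were of polyA RNA amplified with Smart-seq2. No label gives the age or breed of the animals, and nothing says that replicates came from separate animals, so p-values measure the spread between these libraries, which may be technical. The untreated libraries came from 2 earlier studies, and it is not said which library came from which, so stage and study cannot be told apart.

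*POU5F1* (OCT4) and *SOX2* encode transcription factors that bind DNA side by side and, with *NANOG*, keep the inner cell mass and embryonic stem cells pluripotent. SOX15 is a relative of SOX2 that can bind the same DNA element. SALL4 is a zinc finger protein that works with the NuRD deacetylase complex and controls *POU5F1*. LIN28A and LIN28B are RNA-binding proteins that block the maturation of let-7 microRNAs and are classical markers of undifferentiated cells. In many mammals the oocyte supplies some of these mRNAs, and the embryo makes its own after zygotic genome activation (ZGA), which falls near the 8-cell stage in goat. YTHDF2 binds m6A-modified mRNA and recruits the enzymes that shorten its polyA tail.

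The untreated libraries held 26853876 to 42495116 fragments. The depth of the injected libraries is unknown, because their FPKM values were rounded to 2 decimals and do not step by whole fragments. Among the untreated libraries, 8-cell replicate 1 stood apart. Its log2 values correlated at 0.917 and 0.941 with those of 8-cell replicates 2 and 3, whereas replicates 2 and 3 correlated at 0.978, and it held 9951 genes at 1 FPKM or more against 8487 and 8626. Genes listed in all 3 stage tables took 64.7 to 66.2% of the fragments of the MII libraries but 94.6 to 96.8% of those of the embryos, and the median gene lay 0.29 higher on the log2 scale at the 4-cell stage and 0.37 higher at the 8-cell stage than in MII oocytes. Differences from MII are therefore best read against these shifts. The oocyte genes *GDF9*, *BMP15* and *ZP2* were at 59.8 FPKM or more in all 13 libraries. The oocyte list as a whole was less even, with 7 of its 11 genes at 1 FPKM or more in the NC libraries. There *ZAR1*, *NLRP5* and *FIGLA* were at 0.89 FPKM or less, and *OOSP2* was listed at 0 in all injected libraries. The markers of follicular (cumulus) cells were mixed. *FSHR* and *AMH* were at 0.39 FPKM or less, but *STAR* (17.6 to 95.6 FPKM), *HAS2* (8.15 to 29.4 FPKM) and *VCAN* (8.44 to 22.4 FPKM) were present in all libraries, and the list summed to 45.9 to 142 FPKM. Of 12 blastocyst lineage markers, 2 to 6 were at 1 FPKM or more in untreated and 7 to 10 in injected libraries, while *CDX2* was at 0.32 FPKM or less throughout.

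**Figure D1:**
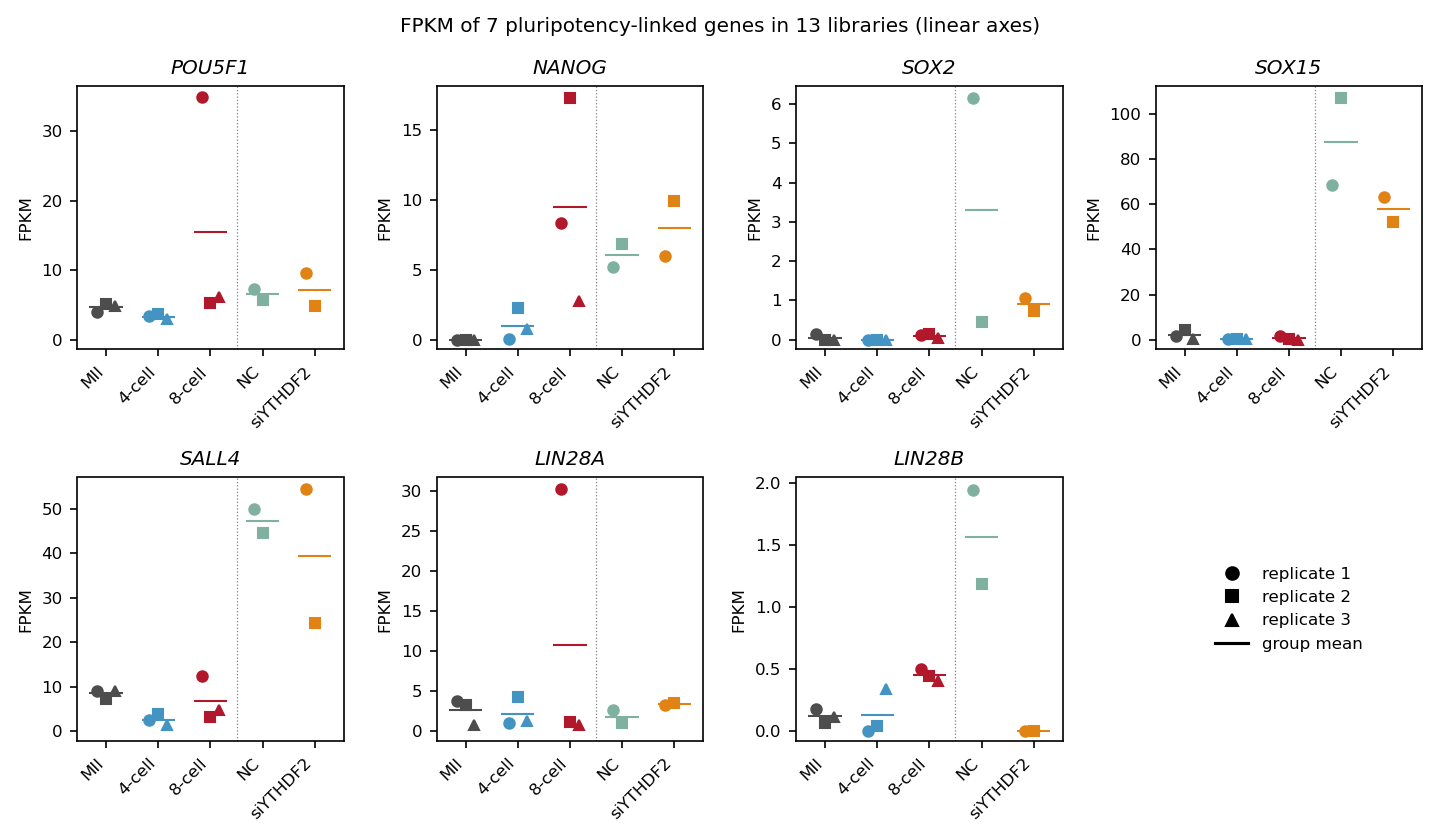
FPKM of the 7 genes (y axes, linear, 1 panel per gene with its own scale) in each of the 13 libraries, grouped on the x axis by stage or siRNA; symbols mark replicates, bars the group means, and the dotted line separates untreated from injected libraries, which were normalized separately. 8-cell replicate 1 (red circle) holds the highest untreated value of *POU5F1* (34.9 FPKM) and *LIN28A* (30.2 FPKM), whereas *SOX15* and *SALL4* are highest in the injected libraries.

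Stages were compared in 1 limma fit of log2(FPKM + 1), and a call means that a gene passed the rule of the study (over 2-fold, with an unadjusted p below 0.05). Of the 9090 genes tested, 22.8% were called at the 4-cell stage against MII (16.7% higher and 6.06% lower), 28% at the 8-cell stage against MII (19.8% higher and 8.14% lower) and 8.83% between the embryo stages (4.55% higher and 4.28% lower). With the adjusted p in place of the unadjusted one these shares were 20.5, 26.1 and 5.46%. Libraries of the later stage all lay above those of the earlier stage for 37.8, 36.4 and 11.6% of genes in these comparisons, and all below for 14.1, 13.7 and 16.6%. *SOX2* and *LIN28B* did not reach the mean of 1 FPKM needed for this test. The other 5 were tested, *LIN28A* with its 2 rows summed. Of these 5, *SALL4* was the 1 called at the 4-cell stage against MII, where it fell, and *NANOG* the 1 called at the 8-cell stage against MII, where it rose. Between the 4-cell and the 8-cell stage *POU5F1*, *NANOG* and *SALL4* were called higher, of which *NANOG* alone passed at the adjusted p (limma, Benjamini-Hochberg). The median change of these 5 genes was -0.39, 0.55 and 1.01 in the 3 comparisons, on the log2 scale, beside 0.29, 0.37 and 0.07 over all genes.

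*POU5F1*, the central factor of the network, was detected at every stage. Its FPKM was 4.02, 5.05 and 4.87 in the MII replicates, 3.34, 3.68 and 2.93 in the 4-cell replicates and 34.9, 5.27 and 6.15 in the 8-cell replicates, from 91 to 1025 fragments. The 3 stages did not overlap, with the 4-cell libraries lowest and the 8-cell libraries highest, but only 8-cell replicate 1 lay far above the rest. The change from MII was -0.39 ± 0.56 (SE) for 4-cell and 1.06 ± 0.56 for 8-cell embryos, with adjusted p of 0.64 and 0.17 in limma. The second value was 0.25 without 8-cell replicate 1, but 1.51 and called without 8-cell replicate 2 (limma, adjusted p = 0.063) and 1.41 and called without 8-cell replicate 3 (adjusted p = 0.12). The 8-cell stage was higher than the 4-cell stage by 1.44 ± 0.56 and passed the rule of the study, but not at the adjusted p of 0.15 (limma). Without 8-cell replicate 1 the change was 0.64 (adjusted p = 0.12), under 2-fold, and the call was lost. It was also lost when any 1 of the 4-cell libraries was left out, where the change stayed between 1.38 and 1.5 but the unadjusted p was above 0.05, and in the fit of the 2 groups alone (1.44) and by limma voom (1.63).

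*NANOG* was the member with the clearest start of expression. No fragment was counted in any MII library. In the 4-cell libraries its FPKM was 0.0335, 2.26 and 0.739, from 1, 63 and 22 fragments, and in the 8-cell libraries 8.34, 17.3 and 2.76, from 235, 493 and 87 fragments. All 8-cell libraries lay above all 4-cell libraries, and these above MII, although the first 4-cell library held a single fragment, which is under the floor of 3 fragments used here. At the 8-cell stage the mean of 9.46 ± 7.32 FPKM (SD, n = 3) was at least 121-fold higher than MII, taking 3 fragments per MII library as the floor (limma, adjusted p = 0.0025). Against the 4-cell stage *NANOG* rose by 2.26 ± 0.57 on the log2 scale (adjusted p = 0.041). Leaving out single libraries gave 1.72 to 2.86 for this rise, and it passed the rule of the study each time, at 2.20 (limma, adjusted p = 0.071) without 8-cell replicate 1. Over all alternatives the adjusted p of this rise ranged from 0.027 to 0.15. The presence of *NANOG* at the 4-cell stage was not called against MII (limma, adjusted p = 0.29), but it was with a pseudocount of 0.1 (adjusted p = 0.069) and by limma voom on the fragments (adjusted p = 0.086).

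*SOX2*, the usual partner of OCT4, was at or near 0 in untreated libraries. MII replicate 1 held 5 fragments (0.152 FPKM) and the other MII libraries none, no 4-cell library held any, and the 8-cell replicates held 3, 4 and 1 fragments (0.115, 0.151 and 0.0342 FPKM). These values are near the floor of 3 fragments, so no fold was computed. In the later release of the assembly the *SOX2* model overlaps that of a long non-coding RNA gene, and strand was not stated for the counting, so fragments in the overlap may be lost or shared. In the fit without a filter limma gave an adjusted p of 0.50 for the 8-cell stage over MII and of 0.31 over the 4-cell stage.

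*SOX15* had its highest untreated mean in oocytes. Its FPKM was 1.82, 4.25 and 0.409 in MII, 0.352, 0.269 and 0.378 in 4-cell and 1.63, 0.289 and 0.0715 in 8-cell libraries, the last from 61, 11 and 3 fragments. The MII libraries spread over 10-fold, and all 3 were above the 4-cell libraries. The change was -1.05 ± 0.48 from MII to the 4-cell stage, with an adjusted p of 0.13 in limma. From MII to the 8-cell stage it was -0.84 ± 0.48, with an adjusted p of 0.20. Neither was called, but both were when the libraries were scaled by the fragments on the shared genes, by median ratios or by quantiles, at -1.41 to -1.16 at the 4-cell stage and -1.2 to -1.03 at the 8-cell stage. Both were also called without MII replicate 3, the lowest MII library, at -1.53 and -1.32. Without MII replicate 1, MII replicate 2 or 8-cell replicate 1, *SOX15* missed the filter of 1 FPKM and could not be tested. The test of the fall thus rested on the libraries where the gene was high. From the 4-cell to the 8-cell stage the change was 0.21 ± 0.48 (adjusted p = 0.82). The gene model of *SOX15* overlaps that of *MPDU1*, with the same limit as for *SOX2*.

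*SALL4* was the most abundant member in MII oocytes and the one that fell at the 4-cell stage. Its FPKM was 9.09, 7.34 and 9.08 in MII, 2.45, 3.91 and 1.44 in 4-cell and 12.5, 3.28 and 4.85 in 8-cell libraries, from 149 to 1388 fragments. All 4-cell libraries lay below all MII libraries, while the 8-cell libraries overlapped both earlier stages. *SALL4* fell by 1.45 ± 0.42 on the log2 scale at the 4-cell stage (95% interval -2.39 to -0.51, limma adjusted p = 0.027). This call held under all 18 alternatives of scaling, filter, pseudocount, model and left-out library, between -1.97 and -1.2, with adjusted p from 0.0037 to 0.096. At the 8-cell stage the change against MII was -0.45 ± 0.42 (adjusted p = 0.43). The rise over the 4-cell stage, of 1.01 ± 0.42, passed the rule of the study but not at the adjusted p of 0.18. It was 0.53 and no longer called on leaving out 8-cell replicate 1 (limma, adjusted p = 0.36). That call was also lost on leaving out 4-cell replicate 1 (1.01), 4-cell replicate 3 (0.76), MII replicate 1 or MII replicate 3, in the fit of the 2 groups alone, and under median-ratio (0.92) or quantile (0.88) scaling.

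*LIN28A* was listed in 2 rows in every table. In the untreated libraries a length of 630 bases, recovered from the embryo values, gave whole fragments for both rows. It equals the span of the shorter of the 2 gene models of that name in the later release. As both rows share it, which row is which model cannot be told. Reads that map equally well to both copies were dropped by the authors, so the values are uncertain, and the rows were summed. The sum was 3.80, 3.33 and 0.822 FPKM in MII, 1.05, 4.26 and 1.27 FPKM in 4-cell and 30.2, 1.15 and 0.785 FPKM in 8-cell libraries. The high value in 8-cell replicate 1 came from 482 and 35 fragments in the 2 rows, against 18 and 2 in replicate 2 and 9 and 6 in replicate 3. The stages overlapped throughout. The change was -0.21 ± 0.98 at the 4-cell stage against MII, 0.55 ± 0.98 at the 8-cell stage against MII and 0.76 ± 0.98 between the embryo stages (limma, adjusted p = 0.89, 0.69 and 0.65). Without 8-cell replicate 1 the last 2 values turned to -0.78 (adjusted p = 0.24) and -0.57 (adjusted p = 0.55), so the direction at the 8-cell stage was set by 1 library.

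*LIN28B*, the paralog, was low but even among 8-cell libraries. MII libraries held 5, 2 and 4 fragments (0.180, 0.0699 and 0.116 FPKM), 4-cell libraries 0, 1 and 8 fragments (0, 0.0459 and 0.344 FPKM) and 8-cell libraries 11, 10 and 10 fragments (0.500, 0.448 and 0.406 FPKM). All 8-cell libraries lay above all libraries of both earlier stages. In the fit without a filter the difference was 0.37 ± 0.11 on the log2(FPKM + 1) scale over MII (limma, adjusted p = 0.047) and 0.37 ± 0.11 over the 4-cell stage (adjusted p = 0.12), under the 2-fold of the rule on a scale that understates changes of such low genes.

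**Figure D2:**
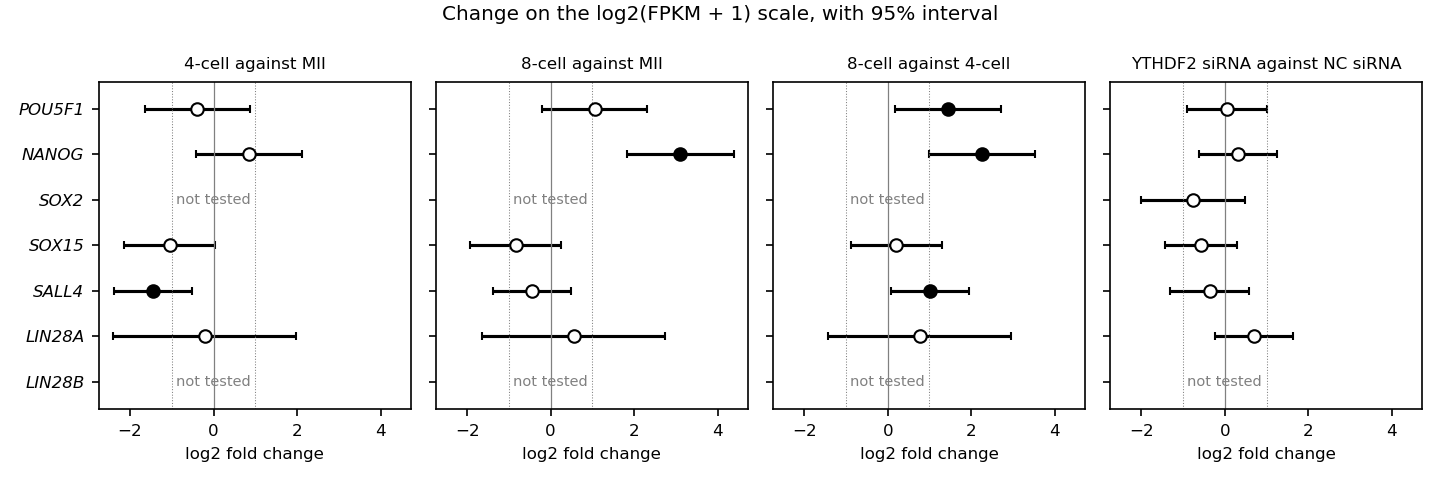
Change of each gene (y axis) on the log2(FPKM + 1) scale (x axis) in the 4 comparisons, with 95% limma intervals; filled points pass the rule of the study (over 2-fold, dotted lines, with an unadjusted p below 0.05), open points do not, and *LIN28A* and, after injection, *NANOG* are sums of 2 rows. *SALL4* is the filled point at the 4-cell stage (-1.45), *NANOG* is filled in both 8-cell comparisons (3.11, a value that depends on the pseudocount since MII is at 0, and 2.26), and none of the 6 points drawn for the knockdown is filled. Genes marked as not tested, *LIN28B* among them, were under the mean of 1 FPKM needed for these fits.

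The order of the 7 genes changed between stages. In MII oocytes *SALL4* led with 8.51 ± 1.01 FPKM (SD, n = 3), above *POU5F1* with 4.65 ± 0.55 FPKM, and these did not overlap. *LIN28A* with 2.65 ± 1.6 FPKM and *SOX15* with 2.16 ± 1.94 FPKM followed and overlapped each other, and *LIN28B*, *SOX2* and *NANOG* were at 0.18 FPKM or less in all MII libraries. At the 4-cell stage *POU5F1* (3.32 ± 0.38 FPKM), *SALL4* (2.60 ± 1.24 FPKM), *LIN28A* (2.19 ± 1.79 FPKM) and *NANOG* (1.01 ± 1.14 FPKM) came first, followed by *SOX15* (0.333 FPKM), and each overlapped the next, while *LIN28B* (0.130 FPKM) and *SOX2* (0 FPKM) had the lowest means. At the 8-cell stage the means of *POU5F1* (15.4 ± 16.8 FPKM), *LIN28A* (10.7 ± 16.9 FPKM), *NANOG* (9.46 ± 7.32 FPKM) and *SALL4* (6.86 ± 4.91 FPKM) did not differ beyond their spread. *SOX15*, *LIN28B* and *SOX2* had lower means at that stage, of 0.662, 0.451 and 0.10 FPKM.

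Much of the spread at the 8-cell stage came from replicate 1. It was the highest 8-cell library for 5 of the 7 genes, and for 44.9% of 9110 genes (those averaging 1 FPKM or more). Its FPKM over the mean of replicates 2 and 3 was 31.2 for *LIN28A*, 9.01 for *SOX15*, 6.11 for *POU5F1* and 3.07 for *SALL4*, beside a median of 1.04 over 9096 genes. These ratios were as high as or higher than those of 99.5, 95.6, 92.8 and 85.1% of the genes. *LIN28B* and *SOX2* were at 1.17 and 1.24, and *NANOG* at 0.833. So *NANOG*, the one gene called at the 8-cell stage over MII and over the 4-cell stage, was not raised in the library that stood apart. *POU5F1* and *LIN28A* moved together over the 9 untreated libraries at r = 0.81 on the log2 scale, but at r = -0.22 without this library.

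**Figure D3:**
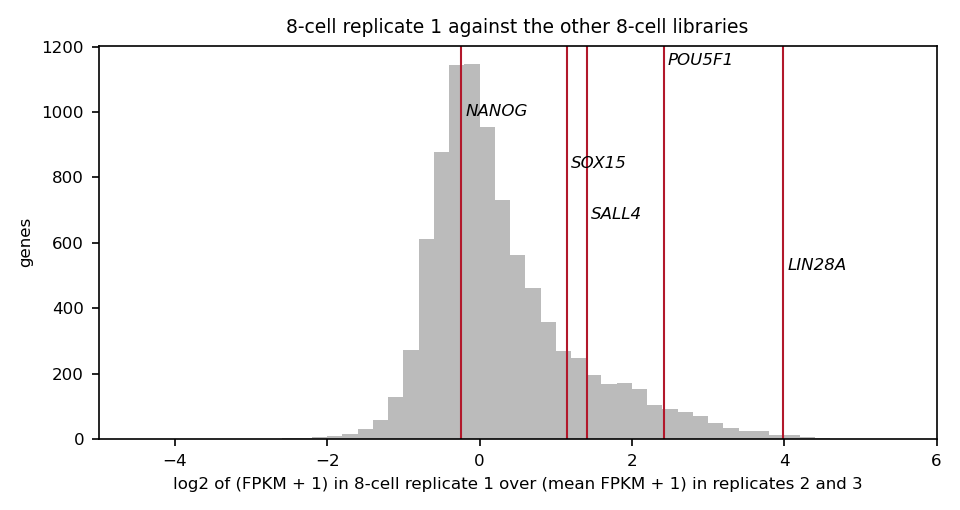
Histogram of genes (y axis) by the log2 ratio of FPKM + 1 in 8-cell replicate 1 to the mean FPKM + 1 of 8-cell replicates 2 and 3 (x axis), for genes averaging 1 FPKM or more over the untreated libraries, with *POU5F1*, *NANOG*, *SOX15*, *SALL4* and *LIN28A* marked by red lines. Most genes lie near 0, *NANOG* lies among them, and *LIN28A*, at a ratio of 31.2 in FPKM, lies at the far right.

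Knockdown embryos were compared with NC embryos to ask what loss of *YTHDF2* did to these mRNAs at the 8-cell stage. The antisense strands of the 2 siRNAs are printed because they define the treatment, with the seed (bases 2 to 8 of 21, through which an siRNA can also bind other mRNAs) in capitals.
s28148: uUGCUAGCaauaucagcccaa
s28147: uGGUCUAUaguauucaugcca
The 2 seeds differ. *YTHDF2* itself was at 112 and 159 FPKM in NC libraries and at 8.07 and 4.47 FPKM in YTHDF2 siRNA libraries. It fell by 4.25 ± 0.43 on the log2 scale (limma, adjusted p = 3.7e-04), so both groups matched their labels.

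None of the 6 genes that could be tested was called in the knockdown, whereas 24.8% of the 11004 genes tested were called (9.48% higher and 15.3% lower), and 7.98% at the adjusted p. In limma 0 of the 6 reached an unadjusted p under 0.05. The groups lay apart for *SOX15*, lower after knockdown, and for *LIN28A*, higher after knockdown. Such separation held for 30.7 and 30.3% of all genes in the lower and higher direction.

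*POU5F1* was at 7.33 and 5.77 FPKM in NC and at 9.52 and 4.82 FPKM in YTHDF2 siRNA libraries. The NC values lay between the 2 knockdown values. The difference was 0.06 with a 95% interval from -0.90 to 1.02 (limma, adjusted p = 0.94). *NANOG*, summed over 2 rows of which the second never passed 0.04 FPKM, was at 5.21 and 6.84 FPKM in NC and at 5.96 and 9.95 FPKM after knockdown, a difference of 0.32 (-0.62 to 1.26, adjusted p = 0.64). Both intervals still hold changes of about 2-fold, so these 4 libraries do not show that the levels were equal.

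*SOX2* was the least even member. Its FPKM was 6.15 and 0.45 in the NC libraries and 1.06 and 0.74 in the YTHDF2 siRNA libraries, so both knockdown values lay between those of the controls. The difference was -0.77 (-2.02 to 0.48, limma adjusted p = 0.39). *SOX2* passed the filter of 1 FPKM only through NC replicate 1, and without that library it could not be tested. Both knockdown values lay above the 0.45 FPKM of NC replicate 2. Without NC replicate 2, which held the low value, the difference was -1.92. In that fit the 1 NC library left, which held the high value, is assumed to vary like the knockdown libraries.

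*SOX15* and *SALL4* were the most abundant members after injection. *SOX15* was at 68.4 and 107 FPKM in NC and at 63.2 and 52.2 FPKM after knockdown, and both knockdown values were lower. The difference was -0.57 (-1.44 to 0.30, limma adjusted p = 0.36). *SALL4* was at 50.1 and 44.7 FPKM in NC and at 54.4 and 24.4 FPKM after knockdown, and the knockdown libraries lay on both sides of the controls (-0.36, -1.32 to 0.59, adjusted p = 0.60).

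The LIN28 paralogs differed in their values. *LIN28A*, summed, was at 2.59 and 1.07 FPKM in NC and at 3.27 and 3.58 FPKM after knockdown, both higher than the controls, with a difference of 0.70 (-0.24 to 1.63, limma adjusted p = 0.30). Without NC replicate 1 it was 1.10 and passed the rule of the study but not the adjusted p (limma, 0.18), again with 1 NC library assumed to vary like the knockdown libraries. *LIN28B* was at 1.95 and 1.19 FPKM in NC and was listed at 0 in both YTHDF2 siRNA libraries. Its mean was under 1 FPKM, so it was tested only in the fit without a filter, where it passed the rule of the study but not at the adjusted p of 0.17 (limma). As the depth is unknown, no fold is given. Of 9991 names at 1 FPKM or more in both NC libraries, 30 (0.3%) were listed at 0 in both knockdown libraries, and of 686 names between 1 and 2 FPKM in both NC libraries, 9 were.

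Marker lists were read in the same comparison, in which 9.48% of all genes were called higher and 15.3% lower. The oocyte list lay furthest from these shares. Of 9 oocyte markers tested, 6 were higher and 0 lower after knockdown (limma, 1 at the adjusted p, median change 1.16), and their summed FPKM was 485 to 763 in NC and 984 to 1904 in YTHDF2 siRNA libraries. Of 8 blastocyst lineage markers tested, 1 was higher and 2 were lower, with summed FPKM of 220 to 266 and 159 to 200. Of 5 cumulus cell markers tested, 2 were higher and 1 was lower, with summed FPKM of 45.9 to 53.2 and 81.6 to 91.2, while *FSHR* and *INHA* were listed at 0 in all 4 libraries. Their part in the values of the 7 genes was not tested. In such pooled embryos a difference in stage composition and a difference in mRNA per embryo cannot be told apart.

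Injected controls and untreated embryos of the same 8-cell label were set side by side without a test, since they were normalized separately. *SOX15* was at 68.4 and 107 FPKM in NC and at 0.0715 to 1.63 FPKM in untreated libraries. *MPDU1*, which it overlaps, was at 75.0 and 33.4 FPKM in NC and at 31.3 to 43.0 FPKM in untreated 8-cell libraries. *SALL4* was at 44.7 and 50.1 FPKM in NC and at 3.28 to 12.5 FPKM in untreated libraries. *SOX2* and *LIN28B* were also above all untreated 8-cell values in both NC libraries. So were the blastocyst lineage markers *TFAP2C* (89.3 and 126 FPKM, against 23.2 FPKM at most), *KRT8* (66.5 and 91.4 FPKM, against 2.1 FPKM at most) and *GATA6* (23.8 and 27.0 FPKM, against 0.575 FPKM at most), and their list summed to 220 to 266 FPKM in NC and 48.8 to 60.4 FPKM in untreated 8-cell libraries. The oocyte markers lay the other way, with sums of 485 to 763 FPKM in NC and 2514 to 3060 FPKM in untreated libraries, as did the cumulus markers, with 45.9 to 53.2 FPKM and 95.6 to 142 FPKM. Their part in the values of the 7 genes was not tested. In contrast, *POU5F1*, *NANOG* and *LIN28A* of the NC libraries lay within the range of the untreated 8-cell libraries. For *POU5F1* and *LIN28A* the top of that range was 8-cell replicate 1 alone (34.9 and 30.2 FPKM). Against 8-cell replicates 2 and 3, NC replicate 1 lay above for both genes, at 7.33 FPKM (6.15 FPKM at most) and 2.59 FPKM (1.15 FPKM at most). NC replicate 2 lay within. In NC the order was *SOX15* (87.7 ± 27.3 FPKM, SD, n = 2), *SALL4* (47.4 ± 3.80 FPKM), *POU5F1* (6.55 ± 1.10 FPKM), *NANOG* (5.21 and 6.84 FPKM), *SOX2* (3.30 ± 4.03 FPKM), *LIN28A* (1.83 ± 1.07 FPKM) and *LIN28B* (1.57 ± 0.54 FPKM), where *SOX15*, *SALL4* and *POU5F1* did not overlap and from *POU5F1* on each gene overlapped the next. After knockdown the order was *SOX15* (57.7 ± 7.81 FPKM), *SALL4* (39.4 ± 21.2 FPKM), *NANOG* (5.96 and 9.95 FPKM), *POU5F1* (7.17 ± 3.32 FPKM), *LIN28A* (3.42 ± 0.22 FPKM), *SOX2* (0.90 ± 0.23 FPKM) and *LIN28B* (listed at 0), where *SOX15* overlapped *SALL4* and *NANOG* overlapped *POU5F1*.

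**Figure D4:**
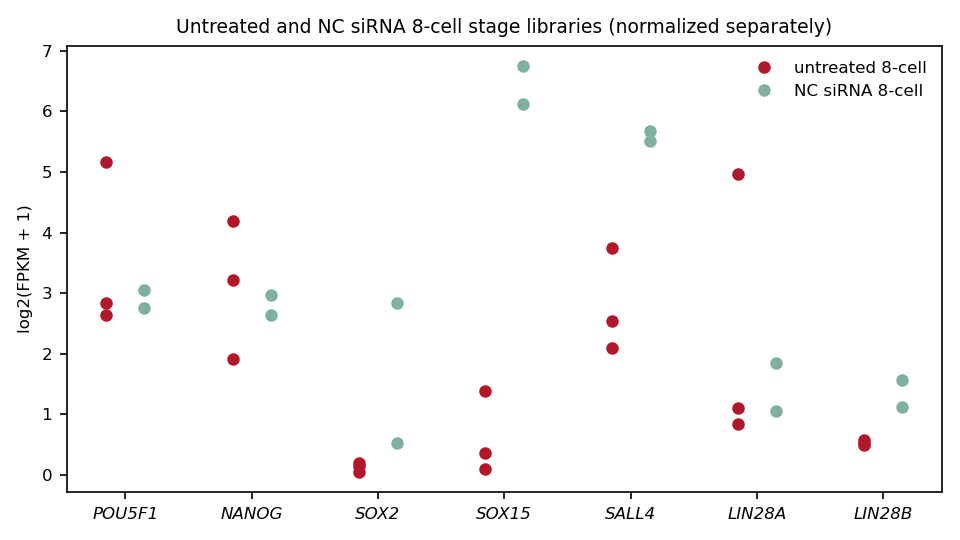
log2(FPKM + 1) (y axis) of the 7 genes (x axis) in the 3 untreated 8-cell libraries (red) and the 2 NC siRNA libraries (green), 1 point per library, on scales that were normalized separately. *SOX15* and *SALL4* lie higher in both NC libraries, at 68.4 and 107 FPKM and at 50.1 and 44.7 FPKM, while the *POU5F1*, *NANOG* and *LIN28A* points fall within the untreated range. For *POU5F1* and *LIN28A* the top of that range is 8-cell replicate 1 alone (34.9 and 30.2 FPKM), and NC replicate 1 lies above 8-cell replicates 2 and 3.

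Genes of the wider network were examined from lists given by symbol. Of 35 genes of the naive and core pluripotency network, 17 were tested at the stages. The filter was on the mean over all 9 libraries, so a gene could pass through the 8-cell libraries alone. *KLF17*, for example, averaged 0.285 FPKM at the 4-cell and 5.45 FPKM at the 8-cell stage. Of 28 listed genes, 5 to 7 were at 1 FPKM or more in MII and 17 to 18 in 8-cell libraries. The tested set thus leaned toward rises, and the counts and medians below carry that limit. At the 4-cell stage 4 rose and 0 fell against MII, with a median change of 0.62 beside 0.29 over all genes. These included the homeobox genes *ARGFX* (0 to 0.0720 FPKM in MII and 15.5 to 29.5 FPKM at the 4-cell stage) and *OTX2* (2.12 on the log2 scale), and the TGF-beta family ligand *GDF3* (1.18). These counts depended on the scaling. They were 2 higher and 2 lower when scaled to the shared genes, 2 and 1 by median ratios and 3 and 1 by quantiles, with *GDF3* under 2-fold in all 3, at 0.64 to 0.89. At the 8-cell stage 9 rose and 1 fell against MII (median 1.34 beside 0.37). *ARGFX* (52.8 to 497 FPKM), *OTX2* (3.63) and the germ and stem cell gene *DPPA4* (3.45) rose furthest, and *TCL1A*, an AKT co-activator, fell by 1.2. From the 4-cell to the 8-cell stage 9 were called higher and 0 lower, 6 of them at the adjusted p (limma), with a median of 1.42 beside 0.07, led by *ARGFX* (2.64, and 3.34 without 8-cell replicate 1), *DPPA4* (2.46, adjusted p = 0.20) and the Krüppel-like factor *KLF17* (2.20). Without 8-cell replicate 1 the counts were 9 higher of 16 tested in both 8-cell comparisons, with 2 lower against MII and 0 lower against the 4-cell stage. *DPPA4*, at 5.16, 124 and 4.06 FPKM in the 8-cell replicates, was then at 4.13 against MII and 3.14 against the 4-cell stage and called in both. Its call against the 4-cell stage was lost under quantile scaling (2.24). The rise of *DPPA4* over the 4-cell stage leaned on 8-cell replicate 2, which the fit without replicate 1 kept. Its values of 5.16 and 4.06 FPKM in 8-cell replicates 1 and 3 lay on both sides of the highest 4-cell value, 4.22 FPKM. Marker lists moved at the stages too. Of 5 blastocyst lineage markers tested, 3 rose at the 8-cell stage against MII (median 1.85, also 3 under each other scaling), with sums of 48.8 to 60.4 FPKM against 11.5 to 17.4 FPKM, and between the embryo stages 2 rose. Without 8-cell replicate 1 these counts were 2 and 1 of 3 tested. The limit of the filter holds for these markers too, as *TFAP2C* was at 0.0399 FPKM or less in MII and at 4.70 to 23.2 FPKM at the 8-cell stage. Of 5 cumulus markers 2 rose against MII (median 1.02, sums of 95.6 to 142 FPKM against 57.1 to 76.6 FPKM), but 0 under each of the other 3 scalings in limma. Of 10 oocyte markers 0 rose and 1 fell, and 3 fell without 8-cell replicate 1. Their part in the values of the 7 genes and of this list was not tested.

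In the knockdown 24 genes of this list were tested, of which 3 were called higher and 4 lower (3 and 2 at the adjusted p in limma), with a median of -0.23 beside 0.0054 over all genes. The counts of 3 and 4 are near the shares of 9.48 and 15.3% over all genes, so they say nothing particular of the list. At the adjusted p the 3 and 2 genes were a larger share than the 7.98% of all genes, in either direction, but this difference was not tested. *GDF3* (1.90), *TCL1A* (1.84) and the orphan nuclear receptor gene *NR0B1* (1.64) were higher. *KLF5* (-1.49), *OTX2* (-1.43) and the cytokine receptor gene *IL6ST* (-1.13, adjusted p = 0.094) were lower.

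The pathway in which LIN28 acts was given by 20 genes, 14 of them tested at the stages. At the 4-cell stage 1 was called higher and 2 lower, namely the RNA-binding protein gene *MSI1* (1.01, limma adjusted p = 0.075), *KHSRP*, which promotes let-7 maturation (-2.03), and the let-7 target *HMGA1* (-1.33). Under each of the other 3 scalings *MSI1* was under 2-fold and 3 genes were called lower. At the 8-cell stage the let-7 target *IGF2BP3* rose (1.44, from 207 to 239 FPKM in MII to 368 to 1106 FPKM) and *KHSRP* (-1.94) and the uridylyltransferase gene *ZCCHC11* (-1.21), which tails pre-let-7 with LIN28A, fell. Without 8-cell replicate 1 *KHSRP* was at -2.57 and 3 genes were called lower, as they were under each of the other 3 scalings. *IGF2BP3* was under 2-fold when scaled to the shared genes (0.90) or by quantiles (0.98). Between the 4-cell and the 8-cell stage 0 of the 14 were called in limma, with 1 at an unadjusted p under 0.05, where 8.83% of all genes were called. After knockdown *IGF2BP3* (1.31, adjusted p = 0.053) and *IGF2BP2* (1.29, adjusted p = 0.071) were called higher and 0 of 14 lower.

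Relatives of the 7 genes were followed in the same way. Of 17 other SOX genes 11 were listed once in the stage tables and 4 were tested there. *SOX6* rose at the 4-cell stage against MII (1.80) and at the 8-cell stage (1.59), and *SOX4* at the 8-cell stage against MII (1.34) and the 4-cell stage (1.14). *SOX4* was under 2-fold against MII when scaled to the shared genes (0.88), where 1 SOX gene was called lower, or by quantiles (0.99). Of 5 SOX genes tested in the knockdown 0 were called in limma, with 0 at an unadjusted p under 0.05. Of 17 other POU and SALL genes 15 were listed once in the stage tables and 3 were tested there, whereas 7 to 9 were at 1 FPKM or more in NC libraries. At the stages *POU1F1*, the pituitary factor, rose against MII (2.30) and was called against the 4-cell stage (1.65, limma adjusted p = 0.10), as was the sensory neuron factor *POU4F3* (2.20, adjusted p = 0.18). *POU4F3*, at 0.928 to 35.2 FPKM in 8-cell libraries, missed the filter without 8-cell replicate 1. In the knockdown *POU4F3* was called higher (1.34, adjusted p = 0.097) and *POU2F3* lower (-1.39, adjusted p = 0.052), of 8 tested.

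Chromatin partners of the core factors were expressed at every stage, and 19 of 23 were tested there. Against MII 2 were higher and 3 lower at the 4-cell stage and 2 higher and 4 lower at the 8-cell stage, with medians of -0.43 and -0.40 beside 0.29 and 0.37. Under the other 3 scalings 0 or 1 were higher and 4 or 5 lower at the 4-cell stage, and 0 or 1 higher and 5 to 7 lower at the 8-cell stage, the 7 when scaled to the shared genes. The NuRD deacetylase gene *HDAC2* (1.09 and 1.34) and, at the 4-cell stage, the co-activator gene *YAP1* (1.31) were higher, as was *WDR5* at the 8-cell stage (1.42, limma adjusted p = 0.091). *HDAC2* was under 2-fold with each other scaling, *YAP1* with 2 of the 3, and *WDR5* lost its call without 8-cell replicate 1 (0.75) and with 2 of the 3. Among the genes that were lower, the co-repressor gene *TRIM28* (-1.62 and -2.13) fell at both stages, *ARID1A* was called lower at the 4-cell stage (-1.0, adjusted p = 0.092), and the demethylase gene *KDM1A* fell at the 8-cell stage (-1.68). Between the embryo stages 0 were higher and 3 fell, *KDM1A* (-1.25), *RIF1* (-1.23) and the histone chaperone gene *RBBP4* (-1.23). In the knockdown 22 were tested, of which *SMARCD1* was called higher (1.18) and 4 were called lower, led by *HDAC2* (-1.34), *RIF1* (-1.31) and *HDAC1* (-1.28), none at the adjusted p of limma (0.054 to 0.088 for these 4). With 15.3% of all genes called lower, the count of 4 is near the background.

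The genes whose profiles over the 9 untreated libraries were most like those of the members were taken from 3683 genes averaging 10 FPKM or more, by Pearson's r of log2(FPKM + 1), as a description. For *NANOG* these were *TMEM37* (r = 0.98), *BCLAF1* (0.97) and *PDP2* (0.97), which stayed at 0.97 to 0.99 without 8-cell replicate 1. *TMEM37*, a calcium channel-like membrane protein gene, was at 1.22 to 3.31 FPKM in MII, at 3.75, 30.9 and 11.9 FPKM in 4-cell and at 134, 249 and 47.9 FPKM in 8-cell libraries, the same order of libraries as *NANOG*. For *SALL4* they were *MAFG* (0.98), *BRD3* (0.97) and *UBE3D* (0.97), at 0.97 to 1.0 without that library, and for *SOX15* they were *ZMAT2* (0.90), *ZDHHC6* (0.89) and *NDFIP1* (0.89). The genes nearest to *POU5F1*, *KIAA1191* (0.98), *HADH* (0.96) and *TM7SF3* (0.96), leaned on 8-cell replicate 1, without which they were at 0.90, 0.72 and 0.64. The same held for *LIN28A*, where *EXOSC2* (0.96), *DYNLL2* (0.96) and *ASH2L* (0.95) went to 0.85, 0.86 and 0.77.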

How the data were processed

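Per the methods of the study, HISAT2 2.1.0 was used for alignment (goat genome ARS1), multi-mapping reads were removed, and HTSeq gave counts, from which the authors made the deposited FPKM values (fragments per kilobase of exon, scaled to library size). All columns of values were used. The 7 genes and all lists were chosen with earlier results of these data known. Fragments and gene lengths were recovered from the FPKM steps of the untreated libraries (17903 of 17918 names above 0 came out whole within 0.02 of a fragment). Floors cover counting error only, and 95% intervals are those of limma, from the spread between libraries. For genes averaging 1 FPKM or more, log2(FPKM + 1) was modelled in limma 3.58.1 (R 4.3.3, lmFit and eBayes with a mean-variance trend), with the 9 untreated and the 4 injected libraries in separate fits, since they were normalized separately. The pseudocount understates changes of low genes. p-values were two-sided and adjusted over all genes of a fit by Benjamini-Hochberg. Names with several rows were not fitted, except that *LIN28A* and the injected *NANOG* entered a second fit with rows summed, a choice made after the data were seen. Named from each list and comparison were the 3 called genes with the largest change in each direction. Names were matched to RefSeq symbols of ARS1.2 (99.8%), without coordinates. The fits were tested on simulated data. Other analyses used Python 3.11.15 with pandas 2.3.3. The values of a gene in the list of chromatin partners, which the counts for that list include, are not reported here.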

Additional observations from a re-analysis of the deposited data

How the results depend on the processing

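The count of members called was 1 at the 4-cell stage against MII and 2 in the fit of the 2 groups alone, with fragments on the shared genes as total, median-ratio or quantile scaling, voom or a pseudocount of 0.1 (1 to 2 on leaving out single libraries). At the 8-cell stage against MII it was 1, and 2 under the 3 other scalings (1 to 2). Between the embryo stages it was 3, 2 with median-ratio or quantile scaling or voom, and 1 in the 2-group fit and by adjusted p (1 to 3), while 803 genes were called, 496 by adjusted p (672 to 1297, the last without 8-cell replicate 2). In the knockdown it was 0, and 1 with no filter, by *LIN28B* (0 to 1), and 2728 genes were called, 878 by adjusted p (1868 to 3294). Of calls against MII, 26.6% (4-cell) and 29.1% (8-cell) were lower, but 67.6 and 60.4% when scaled to the shared genes, 49.3 and 50.9% by median ratios and 51.7 and 52.7% by quantiles.

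Directions turned for *LIN28A* at the 4-cell stage against MII (0.041 without 4-cell replicate 1, 0.048 without MII replicate 1), for *LIN28A* without 8-cell replicate 1 (-0.78 and -0.57), for *SOX15* between embryo stages with voom (-0.024), and in the knockdown for *POU5F1* (-0.09 without NC replicate 2, range -0.37 to 0.49), *NANOG* (-0.0036) and *SALL4* (range -0.93 to 0.20), both without YTHDF2 siRNA replicate 2. None of these was called, and the cause was not tested.

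The replicate numbers did not pair the samples (r of deviations from -0.51 to 0.20 at the stages and -0.15 in the knockdown). The fit with replicate block called 2064, 2509 and 784 genes at the stages and 2688 in the knockdown, with the same 1, 1, 3 and 0 members. Exchanging the numbers of one siRNA group, chosen after seeing the data, gave 2810 genes. With 2 or 3 libraries a group, the intervals of most members include 2-fold changes, and *SOX2* and *LIN28B* lay near the counting floor at the stages.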
